A study of Mus musculus with 2 samples.

Results

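Many genes of mammals lie back to back, with their transcription start sites close together on opposite strands, so that 1 stretch of DNA serves as the promoter of both. Such divergent promoters are typically rich in CpG dinucleotides, lack a TATA box and often belong to housekeeping genes of DNA repair, RNA processing and mitochondria. Here the peaks of a Notch1 chromatin immunoprecipitation (ChIP-seq) that lay at divergent promoters were described. Notch1 is a receptor whose intracellular domain is cut free on activation, enters the nucleus and works there through the DNA-binding protein RBPJ. The cells were gamma delta T cells, the T lymphocytes with a receptor of gamma and delta chains, taken from thymuses of wild-type C57BL/6 mice 0 to 3 days after birth. The series held 1 library made with a rabbit monoclonal Notch1 antibody and 1 input library without antibody, and the peak list of the Notch1 library was the material used. The input was not analysed here, and the read depth is unknown. With 1 Notch1 library there was no replicate and no test. All 95% intervals below (Wilson for shares, Newcombe for differences of shares, order statistics for medians) cover counting error over peaks or genes only.

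A peak was taken if it reached within 1 kb of start sites of at least 2 different protein-coding genes, with at least 1 gene on each strand (build mm10, GENCODE M21, any transcript). The rule found 108 of 5910 nuclear peaks (1.83%, 1.52 to 2.20) and 108 of the 1173 promoter peaks (9.21%, 7.68 to 11.0). The other 1065 promoter peaks had genes on 1 strand only, and 4737 peaks were distal. The 108 peaks belonged to 100 gene pairs, each pair being the minus-strand and plus-strand start sites closest to each other, and touched 207 genes. Exactly 2 genes were touched by 102 peaks, 3 genes by 5 peaks and 4 genes by 1 peak. In 87 of the 108 (80.6%, 72.1 to 86.9) the closest start sites lay head to head, with the minus-strand start on the left. In the other 21 the starts were crossed, so that the first bases of the transcripts overlapped, by a median of 28 bp. The starts were therefore divergent in the strict sense at 87 of them, and both divergent and within 1 kb of each other at 86.

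The sequences between the start sites show what such a promoter looks like. They belong to the 5 highest-scoring peaks picked by the naming rule of the methods, that covered both head-to-head starts with at most 300 bp between them. A peak at Fam210a/Rnmt met these terms too but is not shown, and it held 0 of the 13 motifs in its central 300 bp. Each is the plus strand of GRCm38.p6 as held by RefSeq, 5′ to 3′, and runs from inside the minus-strand gene on the left to inside the plus-strand gene on the right. Capitals mark every match, on either strand, to 13 searched motifs.
Hmgb1/Uspl1, chr5:149184464-149184585: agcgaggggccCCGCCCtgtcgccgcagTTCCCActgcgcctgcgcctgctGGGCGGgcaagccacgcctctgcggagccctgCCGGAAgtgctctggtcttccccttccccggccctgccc
Zfp408/Arhgap1, chr2:91649766-91649885: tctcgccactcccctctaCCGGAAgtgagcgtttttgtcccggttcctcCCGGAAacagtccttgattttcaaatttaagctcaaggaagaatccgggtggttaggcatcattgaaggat
Zwilch/Rpl4, chr9:64173094-64173385: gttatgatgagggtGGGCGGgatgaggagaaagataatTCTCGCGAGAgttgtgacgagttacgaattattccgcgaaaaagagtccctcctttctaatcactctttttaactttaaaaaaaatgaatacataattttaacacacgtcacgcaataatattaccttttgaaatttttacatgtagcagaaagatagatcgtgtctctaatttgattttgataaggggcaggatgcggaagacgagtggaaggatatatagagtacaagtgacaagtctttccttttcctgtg
Bysl/Med20, chr17:47611467-47611607: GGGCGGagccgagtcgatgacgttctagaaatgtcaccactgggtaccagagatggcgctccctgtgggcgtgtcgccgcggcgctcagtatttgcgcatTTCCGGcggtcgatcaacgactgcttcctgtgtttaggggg
Ndor1/Tmem203, chr2:25255391-25255464: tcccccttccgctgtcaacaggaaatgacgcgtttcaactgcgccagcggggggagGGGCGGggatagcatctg

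In the Hmgb1/Uspl1 stretch the minus-strand start is base 26 and the plus-strand start base 97. An RBPJ core (TGGGAA, here on the minus strand as TTCCCA) begins at base 29 and an ETS motif (CCGGAA) at base 84, so both lie between the start sites. The Zfp408/Arhgap1 stretch holds ETS motifs at bases 19 and 50, the second of them between starts at bases 26 and 95. Zwilch/Rpl4 has starts at bases 11 and 282 and holds the palindrome read by BANP, whose 8-letter form TCTCGCGA matched at base 39. Bysl/Med20 holds an ETS motif on the minus strand at base 101, between its starts at bases 26 and 116. The Ndor1/Tmem203 starts, at bases 26 and 49, have no motif between them and an SP1 motif (GGGCGG) at base 57. A match is only a string of letters and shows no binding.

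Start sites of a pair lay close together, and most peak midpoints lay beside them and not between them. Over the 87 head-to-head peaks the starts were 3.00 to 1483 bp apart, with a median of 80.0 bp (63.0 to 108). They were at most 100 bp apart for 51 peaks, at most 300 bp for 79 and more than 1000 bp for 1. The peak's midpoint fell between the starts in 10 of the 87 (11.5%, 6.36 to 19.9). Each pair is by definition the closest of the annotated starts, which keeps both the gap and this share small. With starts of protein-coding transcripts only, the share was 16.9% of 83 peaks (10.3 to 26.3). Distances inside a gene given below are counted from the pair's start, and other annotated starts can lie nearer. Counting crossed starts too, the midpoint fell between the starts in 12 of 108, beyond the minus-strand start in 48 and beyond the plus-strand start in 48. Minus and plus are only labels of the reference strand, so equal counts do not tell whether 1 gene of a pair was favoured. A gap of 80.0 bp is short beside a median peak width of 376 bp, and 34 peaks (31.5%, 23.5 to 40.7) covered both starts, 20 covered 1 and 54 covered neither. The distance of the midpoint from the centre of the pair had a median of 248 bp (189 to 300), lay within 300 bp for 65 peaks and exceeded 1000 bp for 5.

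**Figure D1:**
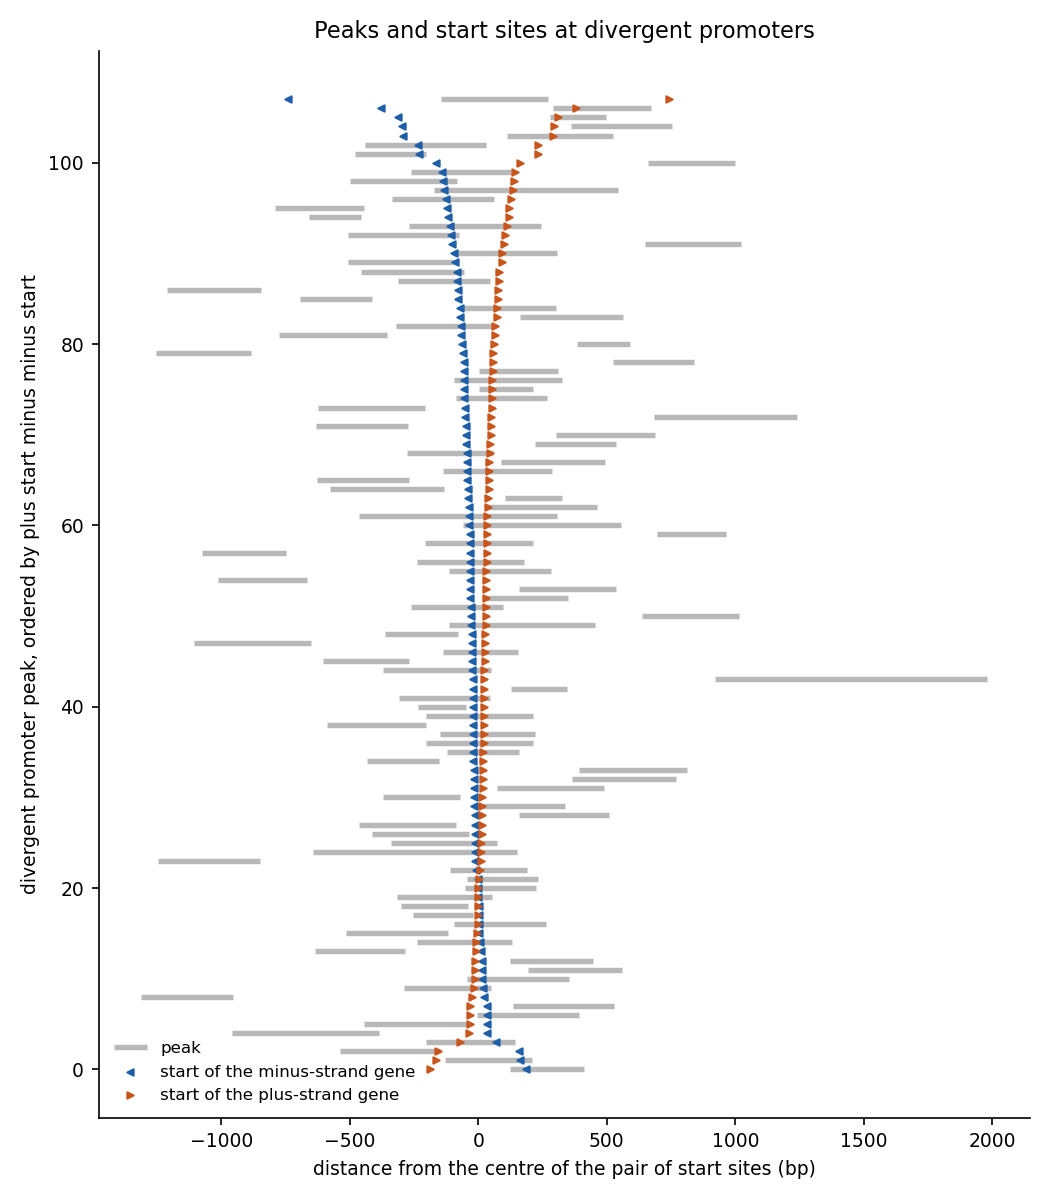
Each row is 1 of the 108 divergent promoter peaks (grey bar, start to end), with the minus-strand start (blue) and the plus-strand start (orange) of its closest pair, against the distance in bp from the centre of the pair. Rows run from crossed starts at the bottom to starts 1483 bp apart at the top. The starts of most rows almost touch, while the bars spread to both sides, 48 with their midpoint on each.

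Gene bodies held most of these midpoints. The layout largely fixes this, since a point beside a close pair of starts is as a rule inside a gene. By the annotation, the midpoint was inside 1 gene of the pair in 85 peaks, inside both in 14 and outside both in 9. In the gene whose start was nearest, it lay in a UTR exon in 38 peaks (35.2%), in an intron in 24, in a coding exon in 11 and in an exon of a non-coding transcript in 9, and it was outside that gene in 26. Within 100 bp of the nearest start of the pair lay 33 of 108 midpoints (30.6%, 22.7 to 39.8). With every annotated start of protein-coding genes in the windows counted, 62 of 108 (57.4%, 48.0 to 66.3) came within 100 bp of one. In promoter peaks of 1 direction 242 of 1065 did (22.7%, 20.3 to 25.3). Starts of non-coding genes were not counted. The difference was 34.7 percentage points (24.9 to 43.9). The windows of divergent peaks also held a median of 8 annotated start sites, against 2 in those of 1 direction, and the part of that number in the difference was not tested. More than 100 bp upstream of the nearest start lay 12 divergent midpoints (11.1%) and 415 of 1 direction (39.0%), and upstream of a gene in a close pair is as a rule inside its partner.

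Scores of the divergent peaks spanned most of the range of promoter peaks, and their excess at the upper end was within counting error. The score is the authors' own value for each peak, on a scale that no header or label states. Its median was 727 (690 to 817) in divergent peaks, 750 (735 to 772) in promoter peaks of 1 direction and 710 (704 to 717) in distal peaks. The lowest divergent score was 510, the quartiles were 658 and 983, and the highest was 3024. At or above the upper quartile of all nuclear peaks (904) lay 34 of 108 divergent peaks (31.5%, 23.5 to 40.7), beside a background of 25.0% of nuclear peaks, and 313 of 1065 peaks of 1 direction (29.4%). The difference from 1 direction was 2.09 percentage points with an interval from -6.38 to 11.7, which covers 0. Only 5 divergent peaks scored over 1500 and 54 scored between 600 and 800. Identical scores occurred, with 13 of the 108 sharing theirs with another divergent peak, so close ranks carry no order. Tied peaks also had equal widths, save those tied at 1396, so the score may partly follow width, which was not tested. Over all divergent peaks the Spearman rank correlation of width and score was -0.13. Within the band from 600 to 800, not tested on its own, some scores fell in step as width grew. They were 703 at 352 bp (Eme2/Mrps34), 684 at 370 bp (Dnajc7/Nkiras2), 667 at 388 bp (Adam9/Tm2d2) and 640 at 417 bp (Ecd/Fam149b). Peaks of equal width could also differ, with 718 (Zranb3/R3hdm1) and 658 (Tti1/Rprd1b) at 398 bp. How many peaks kept to the falling order was not counted.

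Arrangement and score showed no steady relation. The median score was 808 (677 to 917) in the 51 peaks with head-to-head starts within 100 bp, 698 (667 to 965) in the 28 at 101 to 300 bp, 804 in the 8 further apart and 718 (674 to 841) in the 21 with crossed starts. Peaks that covered both starts had a median of 809 (671 to 964), those that covered 1 had 767 (688 to 1013) and those that covered neither had 704 (677 to 841), with overlapping intervals.

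**Figure D2:**
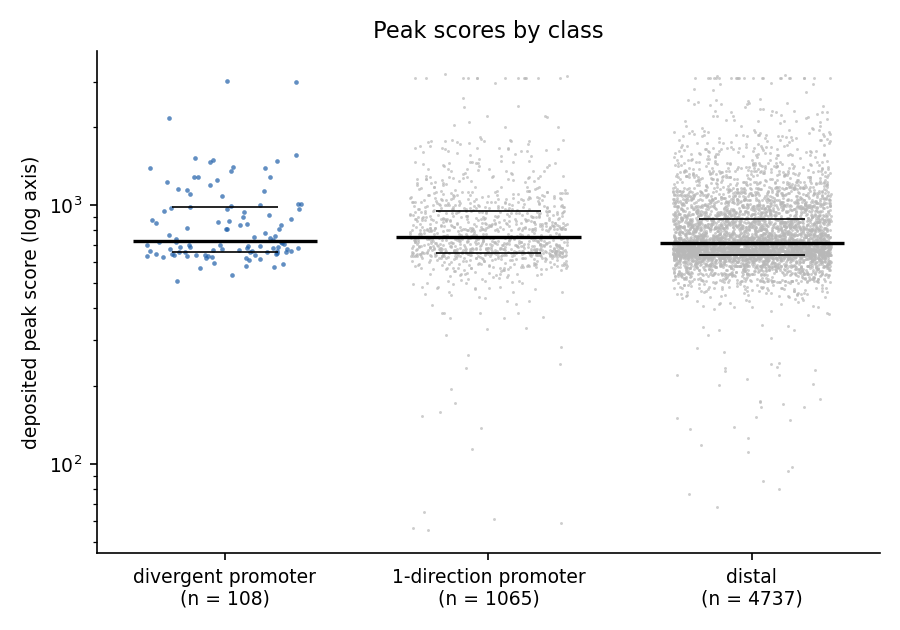
Deposited peak score (log axis) of each divergent promoter peak (blue, n = 108), each promoter peak of 1 direction and each distal peak (grey), with the median as a thick line and the quartiles as thin lines. The medians, 727, 750 and 710, are close together. No divergent peak scored below 510 while both other, larger classes reach below 100. The divergent peak at 510 ranks 5680 of 5910 nuclear peaks, so few peaks of any class lie lower.

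The highest score belonged to the promoter of Hmgb1, which encodes an abundant DNA-bending chromatin protein, and Uspl1, which encodes a SUMO protease. That peak lay on chromosome 5 from 149184060 to 149184830, scored 3024, covered both starts, which are 71 bp apart, and had its midpoint in an intron of Hmgb1. The pair Mrps18b, a protein of the mitochondrial ribosome, and Ppp1r10, a nuclear subunit of protein phosphatase 1, was the only one with 3 peaks. They lay on chromosome 17 within 2289 bp and scored 943, 1085 and 2998 from left to right. The first covered both starts, the second had its midpoint 213 bp inside Ppp1r10 and the highest-scoring lay 1428 bp inside it, from 35917333 to 35918392, at the edge of the rule. It was also poorer in CpG (ratio of observed to expected CpG 0.322) than the first (0.914) and the second (1.103), so the highest-scoring of the 3 peaks lay outside the CpG-rich stretch around the shared starts.

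Dusp10, which encodes a phosphatase of the stress-activated MAP kinases, shared its promoter with 1700056E22Rik, and the peak there scored 2172 (chromosome 1, 184033765 to 184034208). Rbks, the gene of ribokinase, and Babam2, a subunit of the BRCA1-A complex, had a pair of peaks on chromosome 5, scoring 1280 over both starts and 1564 at 797 bp inside Babam2. Hnrnpk, a gene of an RNA-binding protein, and Rmi1, whose product helps to dissolve recombination intermediates, had a peak of 1518 on chromosome 13 (58401567 to 58402025). It lay 853 bp inside Hnrnpk from the pair's start, but another annotated Hnrnpk start was within the peak (midpoint minus start -118 bp). Zfp408 and Arhgap1 followed with 1491, and Zwilch, a kinetochore gene, and Rpl4, a ribosomal protein gene, with 1474. These last peaks covered both starts of their pairs, whereas those at Dusp10 and Hnrnpk covered neither.

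Among the next by score, Fam210a and Rnmt, the gene of the mRNA cap methyltransferase, had starts only 22 bp apart and a peak of 1471. The proteasome subunit gene Psma7 and Ss18l1, a gene of a chromatin remodeller subunit, had 1401. Atp5d, a subunit gene of mitochondrial ATP synthase, with Cbarp, and the ribosomal protein gene Rps27 with Rab13, a small GTPase gene, had the same score of 1396. Taf5l, which encodes a subunit of histone acetylase complexes, and Urb2 had 1349. Hnrnpa2b1 and Cbx3, the gene of heterochromatin protein HP1 gamma, form a promoter known in human cells for keeping transgenes active. Their mouse starts lay 466 bp apart, and the peak there scored 1284 (chromosome 6, 51469686 to 51470159). It covered the Hnrnpa2b1 start and had its midpoint between the starts, 28 bp upstream of that of Hnrnpa2b1. The lowest scores were those at Tcf19/Cchcr1 (573), Hjurp/Trpm8 (535) and Meig1/Dclre1c (510). In the last the starts lay 1483 bp apart and the peak touched neither, so it is the least like a shared promoter of all.

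The extremes of spacing covered the whole range of layouts. Ndufs1, a subunit gene of respiratory complex I, and Eef1b2, a translation elongation factor gene, had starts 3 bp apart and a peak of 964 that covered both. Rubcn and Fyttd1 had starts 15 bp apart (score 947), and Bzw2 and Ankmy2 had starts 22 bp apart with a peak of 659 that lay 1036 bp inside Bzw2. At the other end were Cbarp/Atp5d (622 bp), Timm21/Fbxo15 (592 bp, score 981), and Actn3/Zdhhc24 (759 bp, score 854). Peaks with more than 2 genes were those at Bysl/Med20 (score 1102), Gon7/Ubr7 (1013), Ndor1/Tmem203 (1000), Arfip2/Timm10b (901), Eme2/Mrps34 (703) and Bet1l/Ric8a (695). Their further genes were predicted ones with Gm names at 4 of them, with Gm20604 and Gm28051 at Gon7/Ubr7. At Eme2/Mrps34 it was Nme3, a nucleoside diphosphate kinase gene, and at Ndor1/Tmem203 the annotation holds 2 gene entries that share the symbol Ndor1.

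Gene lists were used to see what kinds of genes the divergent peaks served, beside a background of 207 of 21938 protein-coding genes (0.944%) at a divergent promoter peak and 5.16% with any promoter peak within 1 kb of a start. Of 53 genes of T cell receptor signalling and the T lineage, 0 were at a divergent peak, although 19 (35.8%) had a promoter peak. Of 57 cytokine, JAK-STAT and NF-kB genes, 0 were at one and 13 (22.8%) had a promoter peak. None of the 53 T lineage genes and 2 of the 57 cytokine genes belong to a head-to-head pair at all, beside 2167 of all 21938 genes (9.88%). Lists for B cells (16 genes), myeloid cells (16) and thymic stroma (14) had 0 genes at a divergent peak and 0 with a promoter peak.

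Of 63 genes of the Notch pathway and its targets, 2 (3.17%) were at divergent peaks and 7 (11.1%) had a promoter peak. Kdm5a, a histone demethylase that works with RBPJ in repression, and Ccdc77 had starts 84 bp apart and a peak on each side. One of them (chromosome 6, 120363787 to 120364145, score 847) lay 408 bp inside Ccdc77 and covered neither start of the pair. Another annotated Kdm5a start was within that peak (midpoint minus start -158 bp). The other peak (120364278 to 120364703, score 810) covered both starts of the pair. Each of these peaks held an ETS motif and no RBPJ core. Pofut1, which encodes the enzyme that adds O-fucose to Notch receptors, shares its promoter with Plagl2. The peak there scored 622, lay 362 bp inside Plagl2, in an intron, and held 1 RBPJ core outside its central 300 bp.

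Several housekeeping lists had larger shares than the background. Of 97 DNA repair genes 5 (5.15%) were at a divergent peak: Rmi1 (score 1518), the endonuclease gene Apex1 (807), the checkpoint kinase gene Chek2 (680), the Ku70 gene Xrcc6 (655) and the Artemis gene Dclre1c (510). The products of the last 2 act in the joining step of V(D)J recombination, by which T cells build their receptors. That list is also the one with the largest share in head-to-head pairs (44 genes, 45.4%), and 4 of these 44 (9.09%) were at a divergent peak, compared with 164 of all 2167 paired genes (7.57%). Counted the same way, the share of paired genes at a divergent peak was 33.3% for Notch (2 of 6), 18.2% for chromatin, 15.8% for chaperones, 14.3% for cytosolic ribosomal proteins, 12.1% for the respiratory chain, 11.8% for replication and cell cycle, 11.1% for translation, 10.3% for RNA processing, 9.09% for the proteasome, 8.33% for apoptosis and autophagy, 5.71% for zinc fingers and 0 for histones. These rest on 0 to 4 genes a list. Mitochondrial ribosomal protein genes had 4 of 78 (5.13%), namely Mrps18b, Mrpl57 (977), Mrps34 (703) and Mrpl30 (630), and 4 of their 26 paired genes (15.4%). Respiratory chain genes had 4 of 103 (3.88%), namely Atp5d, Ndufs1, Sdha (677) and Ndufb3 (671).

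Chaperone genes had 4 of 52 (7.69%), led by Pdia3 (704), which encodes a protein disulfide isomerase, and Hsf1 (689), the gene of the heat shock transcription factor, and followed by Dnajc7 (684) and Cct5 (638). Chromatin and transcription genes had 4 of 123 (3.25%), namely Cbx3 (1284), the Mediator gene Med20 (1102), the general factor gene Gtf2h1 (763) and the bromodomain gene Brd2 (648). Of these 123 genes 31 (25.2%) had a promoter peak, so most of their peaks were at promoters of 1 direction. RNA processing genes had 3 of 89 (3.37%), namely Hnrnpk, Hnrnpa2b1 and Prpf4 (722). Translation genes had Eef1b2 and Eif3m (869) of 89, cytosolic ribosomal proteins Rpl4 and Rps27 of 84, replication and cell cycle genes Cdc27 (649) and Mcm8 (643) of 92. Proteasome genes had Psma7 of 48, apoptosis and autophagy genes Sqstm1 (594) of 57. Zinc finger genes had Zfp408, Zfp91 (835) and Zfp341 (658) of 459 (0.654%), close to the background. Of 82 histone genes 0 were at a divergent peak although 27 (32.9%) are in head-to-head pairs. In 3 peaks both genes of the pair were on a list: Hnrnpk/Rmi1, Hnrnpa2b1/Cbx3 and Ndufs1/Eef1b2.

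**Figure D3:**
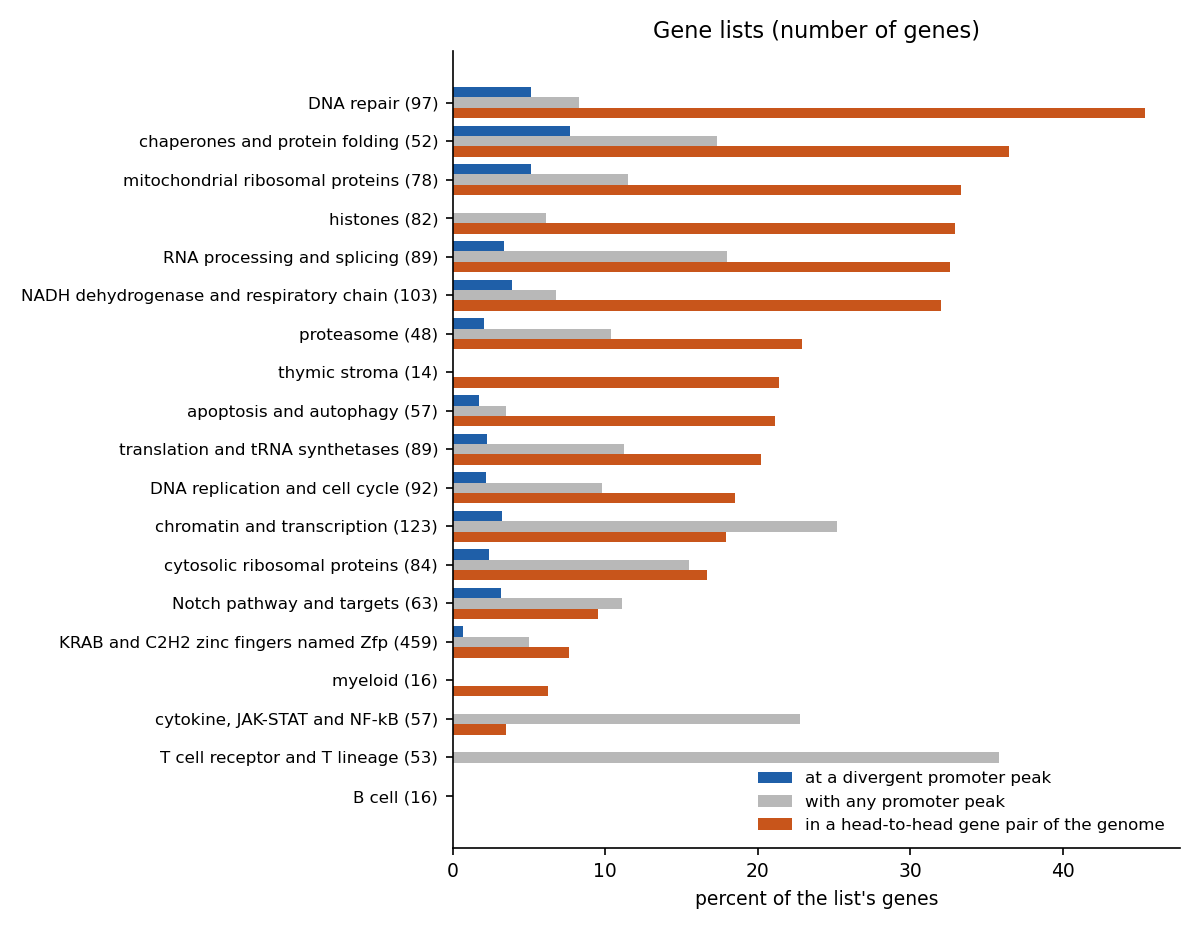
For each gene list (number of genes in brackets), the percent of its genes at a divergent promoter peak (blue), with any promoter peak (grey) and in a head-to-head gene pair of the genome whether or not it has a peak (orange). DNA repair has 45.4% of its genes in pairs and 5.15% at divergent peaks, whereas the T lineage list has 35.8% with a promoter peak and 0 in pairs.

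Seen from the genome, head-to-head pairs carried peaks somewhat more often than genes without a partner, but their windows were also larger. The annotation has 1106 pairs with their closest starts head to head within 1 kb, and 84 of them (7.59%, 6.18 to 9.31) had a peak in the windows of both genes. Of 19230 genes without an opposite-strand partner, 886 had a peak within 1 kb of a start (4.61%, 4.32 to 4.91). The difference was 2.99 percentage points (1.54 to 4.72). Asking for a peak in both windows is the stricter term. With a peak in the window of either gene 114 pairs counted (10.3%, 8.65 to 12.2), and gene by gene 195 of the 2167 paired genes (9%, 7.87 to 10.3), which is 4.39 points (3.22 to 5.70) above genes without a partner. A peak in both windows counts both genes of its pair, so the gene-by-gene intervals here and below are too narrow. Pairs have larger windows, with a median of 7427 bp and 10 start sites against 4002 bp and 3 start sites. Per Mb of window, 13.6 peaks lay at pairs (127 peaks) and 11.8 at genes without a partner (1030 peaks), and no interval was computed for these rates. The part of window size in the differences of this paragraph was not tested. Among CpG-rich promoters only (CpG ratio of 0.6 or more in 300 bp), 78 of 912 pairs (8.55%) and 648 of 8681 genes (7.46%) had a peak, a difference of 1.09 points (-0.654 to 3.15) that covers 0. That result depended on the stricter term, since 103 of the 912 CpG-rich pairs had a peak in either window (11.3%, difference 3.83, 1.85 to 6.11), and gene by gene 169 of 1767 CpG-rich paired genes had one (9.56%, difference 2.10, 0.693 to 3.65). Pairs with starts at most 100 bp apart had a peak in 48 of 538 cases (8.92%, 6.80 to 11.6), pairs at 101 to 300 bp in 29 of 405 (7.16%, 5.03 to 10.1) and pairs at 301 to 1000 bp in 7 of 163 (4.29%, 2.10 to 8.60).

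Divergent peaks were richer in G, C and CpG than other peaks. The median GC content of their central 300 bp was 61.8% (59.7 to 64.0), beside 51.7% (50.7 to 52.7) in promoter peaks of 1 direction and 42.3% in distal peaks. A CpG ratio of 0.6 or more was found in 89 of 108 divergent peaks (82.4%, 74.2 to 88.4) and in 463 of 1065 peaks of 1 direction (43.5%), a difference of 38.9 points (30.1 to 45.6). In windows of 300 bp around the pair's centre, 78 of 84 head-to-head pairs with a peak reached that ratio (92.9%, 85.3 to 96.7), beside 834 of 1022 pairs without one (81.6%, 79.1 to 83.9), a difference of 11.3 points (3.35 to 15.8). The median CpG ratio there was 0.928 (0.857 to 0.956) in pairs with a peak and 0.825 (0.810 to 0.845) in pairs without, and the median GC content 64.0% (61.3 to 66.0) and 62.0% (61.3 to 62.7). Repeat sequence was scarce. Over 20% of the peak was soft-masked in 8 of 108 divergent peaks (7.41%) and in 287 of 1065 of 1 direction (26.9%), a difference of -19.5 points (-24.1 to -12.5). Among the repeat-rich ones were the peaks at Chek2 (29.9% masked) and Pdia3 (24.8%).

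The ETS motif, read by the ETS family that includes the housekeeping factor GABPA and the T cell factor ETS1, had the largest difference from peaks of 1 direction of the 13 motifs. It was in the central 300 bp of 42 of 108 divergent peaks (38.9%, 30.2 to 48.3) and of 161 of 1065 peaks of 1 direction (15.1%), a difference of 23.8 points (14.8 to 33.4). Against the 463 CpG-rich peaks of 1 direction (25.5%) the difference was 13.4 points (3.79 to 23.5). Head-to-head pairs without a peak held it in a like share, in 404 of 1022 windows of 300 bp around the pair's centre (39.5%, difference -0.641, -9.82 to 9.23), and all protein-coding promoters in 18.6%. In the same windows at the centre of the 84 pairs with a peak it was found in 43 (51.2%, 40.7 to 61.6), 11.7 points (0.726 to 22.5) above pairs without one. The string itself holds a CpG, and a CpG ratio of 0.6 or more was also commoner in pairs with a peak (92.9% against 81.6%). The part of CpG content in the ETS difference was not tested.

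The RBPJ core TGGGAA was found at shares whose differences from peaks of 1 direction and from pairs without a peak were within counting error. It was in 21 of 108 divergent peaks (19.4%, 13.1 to 27.9), in 25.4% of peaks of 1 direction, in 18.8% of the CpG-rich ones among them, in 21.2% of head-to-head pairs without a peak and in 23.7% of all promoters. The difference from 1 direction was -5.91 points (-12.8 to 2.92), and from pairs without a peak -1.79 points (-8.66 to 7). The reversed core AAGGGT, a control string, was in 13.0% of divergent peaks and 12.5% of those of 1 direction. In the whole peak, 81 of the 108 held 0 cores, 23 held 1, 3 held 2 and 1 held 3. At least 1 core was thus in 27 of 108 divergent peaks (25.0%, 17.8 to 33.9), beside 342 of 1065 peaks of 1 direction (32.1%). No interval was computed for the difference of these whole-peak shares. The most cores, 3, were at Nek11/Aste1 (score 718), singled out after its value was seen. The median score was 757 in the 21 peaks with a core and 722 in the 87 without.

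Stretches of 30 bases around the leftmost core show it at Zfp408/Arhgap1, where cores adjoin, and in 3 other peaks picked by the naming rule, with the core in capitals on the plus strand of GRCm38.p6.
Zfp408/Arhgap1, chr2:91650166-91650195: ccgagggggcggTTCCCATTCCCAtctcgg
Arfip2/Timm10b, chr7:105640050-105640079: gaaaggctctctTTCCCAggacacgggcaa
Zfp91/Lpxn, chr19:12796243-12796272: ccagagaaatcaTGGGAAactagaggcaga
Osgep/Apex1, chr14:50924962-50924991: caatcgcccacgTGGGAAcaggcagactcc
Cores in the higher-scoring peaks of the rule at Hmgb1/Uspl1, printed further up, and Timm21/Fbxo15 are left out of these lines. The Zfp408/Arhgap1 stretch holds 2 cores in tandem, both on the minus strand (bases 13 and 19). The others hold 1 at base 13, on the minus strand at Arfip2/Timm10b and on the plus strand at Zfp91/Lpxn and Osgep/Apex1. The core at Osgep/Apex1 lies outside the central 300 bp of its peak.

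The other motifs went in both directions, and part of the comparison is between places, since a pair's window is centred on its starts and a peak's on its midpoint. The SP1 motif GGGCGG was in 47.2% of divergent peaks, above the 29.8% of peaks of 1 direction (difference 17.5 points, 7.88 to 27.2) but below their CpG-rich subset (58.1%, difference -10.9, -21.0 to -0.484) and below head-to-head pairs without a peak (65.3%, difference -18.0, -27.6 to -8.23). In the same windows at the pair's centre it was in 59.5% of pairs with a peak, a difference of -5.74 (-16.8 to 4.55) from pairs without one that covers 0. The RUNX motif TGTGGT was in 7.41% of divergent peaks and 17.8% of peaks of 1 direction (difference -10.4 points, -14.8 to -3.55), and in 10.8% of the CpG-rich subset (difference -3.39, -8.18 to 3.61). CCAAT, the NF-Y box, was in 28.7% of divergent peaks, 30.4% of peaks of 1 direction and 40.8% of pairs without a peak, but at the pair's centre in 41.7% of pairs with a peak (difference 0.864, -9.54 to 12). The TATA box TATAAA was in 8.33% of divergent peaks and 11.5% of peaks of 1 direction, and the NRF1 motif GCGCATGC in 3.70% and 2.16%, with intervals of both differences that cover 0. The palindrome CACGTG was in 4.63% and 6.57%, the CREB site TGACGTCA in 4.63% and 2.44%, and ATGGCGG, a YY1 string, in 9.26% and 4.88%. TCTCGCGA of BANP was in 2.78% and 1.03%, TTTNGCGC of E2F in 2.78% and 1.88%, and ACTACAA of ZNF143 in 1.85% and 3.00%.

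**Figure D4:**
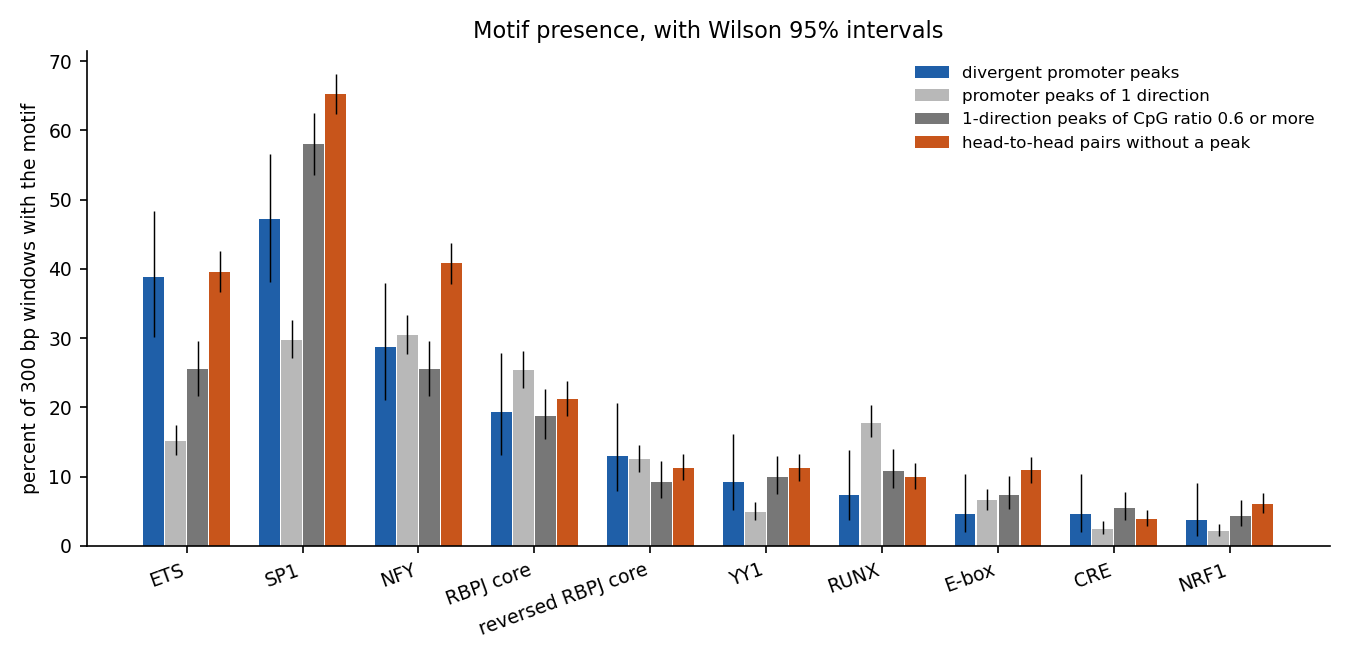
Percent of 300 bp windows with each motif, with Wilson 95% intervals, in divergent promoter peaks (blue), promoter peaks of 1 direction (light grey), the CpG-rich ones among them (dark grey) and head-to-head gene pairs without a peak (orange). ETS stands at 38.9% in divergent peaks and 15.1% in peaks of 1 direction, while the RBPJ core stands at 19.4% and 25.4%.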

How the data were processed

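The deposited peak list gives, per peak, a position, a name that begins with MACS, and the authors' score, whose scale is not stated. Per the submitters' processing notes, Bowtie 1.0.0, SAMtools 0.1.18 and build mm10 were used. The sources used here do not give the caller's settings, the role of the input or the handling of duplicates. The libraries were amplified by PCR, per the labels' protocols, and copied reads can raise a score where they are kept. Of 5913 peaks, 3 mitochondrial ones were left out.

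Start sites came from GENCODE M21, and overlap meant at least 1 bp. Where start sites of several transcripts lay near a peak, the minus and plus starts of different genes closest to each other formed the pair. Motifs were counted as present or absent on both strands in the central 300 bp of a peak, in 300 bp around a pair's centre, or around each gene's outermost start. Sequence was read with pysam 0.24.0 under Python 3.11.15. The code was tested on simulated data.

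Named peaks were the 12 highest and 3 lowest in score, all on the T cell, Notch and cytokine lists, at most 4 with the highest score from each further list, the 4 shortest and 4 longest spacings, and those with 3 or more genes. Members, lists and motifs were chosen with earlier results of these data known, and the comparisons with CpG-rich peaks of 1 direction, with a peak in the window of either gene, per paired gene, and at the centres of pairs with and without a peak were added after seeing the data. Alternatives are in the closing section.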

Additional observations from a re-analysis of the deposited data

How the results depend on the processing

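Of 80 alternative values, 70 lay within the interval of the reported value (for the number of peaks, within 1.5 times). The 10 others follow from how the alternatives were built. With peaks at or above the median score or in the upper quartile only, the number of divergent peaks was 56 and 34, the share of head-to-head pairs with a peak 4.07% and 2.80%, and the median score 979 and 1212. In the central 200 bp, a shorter window, the ETS motif was in 28.7%, the NRF1 motif in 0.926% and the RBPJ core in 13.0% of divergent peaks. The number of divergent peaks was 90 with a window of 500 bp, 138 with 2 kb, 104 by peak midpoint, 103 with starts of protein-coding transcripts, 97 without predicted or readthrough genes, and 86 with head-to-head starts within 1 kb. Chosen after seeing the data, a peak in the window of either gene gave 10.3% of pairs, 1 peak per pair left 100 and a limit of 20% soft-masked sequence left 100. No paired analysis was possible because there is 1 Notch1 library, and none could be left out. The unknown depth and missing replicate limit every share and score.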

Other observations

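Divergent peaks were spread over 19 chromosomes, and chromosome 2 held 16 of the 108 (14.8%, Wilson 95% interval 9.33 to 22.7), beside 8.41% of all head-to-head pairs and 7.76% of promoter peaks. The chromosome was singled out after its count was seen.

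The 10 divergent peaks with the YY1 string had a median score of 1078, against 718 in the 98 without it. Of these 10, 5 were among the 13 highest: Hnrnpk/Rmi1, Zfp408/Arhgap1, Cbarp/Atp5d, Rps27/Rab13 and Hnrnpa2b1/Cbx3. This string, too, was singled out after its values were seen, and was not tested.

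At Park7/Tnfrsf9, also picked after its values were seen, a parkinsonism gene and a costimulatory receptor gene of T cells share a promoter, with starts 125 bp apart. The peak (chromosome 4, 150914884 to 150915090, score 1232) lay 425 bp inside Tnfrsf9, in an intron, and had a CpG ratio of 0.204. Non-coding genes widen the picture: of the 1065 promoter peaks of 1 direction, 150 (14.1%, 12.1 to 16.3) had a start site of a non-coding gene on the other strand within 1 kb.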
